A study of Mus musculus with 16 samples.

Results

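Macropinocytosis is the uptake of bulk fluid, and with it extracellular protein, through large folds of the plasma membrane that close into vesicles. The RNA of 9 of its actin and membrane regulators was followed here: Rac1, Cdc42, Pak1, Arf6, Actn4, Cttn, Ankfy1, Ctbp1 and Sdc1. They were taken by gene symbol from a table of 27179 genes. All 9 passed the filter on low counts and are among the 14288 genes tested.

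As background, active Rac1 and Cdc42 at the membrane drive branched actin growth that raises ruffles and cups, and Arf6 supplies membrane and lipid signals to the same sites. Pak1 is a kinase activated by Rac and Cdc42, Cttn (cortactin) binds branched actin, and Actn4 (alpha-actinin-4) bundles filaments. Ctbp1 acts in the fission that closes the cup in addition to its better known work as a transcriptional corepressor, Ankfy1 (rabankyrin-5) is a Rab5 effector on the vesicle, and Sdc1 (syndecan-1) is a heparan sulfate proteoglycan of the cell surface that has been tied to macropinocytosis in tumour cells. The route can feed amino acids to a cell, and the study's title places its question in how pluripotent cells take these up.

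The libraries came from mouse embryonic stem (ES) cells. All cells had been adapted from serum and LIF for 3 passages and were used for up to 9 passages. The first maintenance medium, 2i/LIF, was free of serum and held N-2 and B-27 supplements, LIF and the inhibitor pair 2i, which is 3 uM CHIR99021 (a GSK3 inhibitor) and 1 uM PD0325901 (a MEK inhibitor). The second, serum/LIF+2i, held 10% fetal bovine serum with the same LIF and 2i, so both starting populations carried the inhibitors; its cells are called serum cells here for short. Exit from naive pluripotency was started by a change to serum-free medium with N-2 and B-27 and without LIF or 2i. Both exit media held 2 mM glutamine, but on different bases: 2i/LIF cells kept their own, and serum cells went from a serum medium to another base, so serum was withdrawn only from the latter. Cells were collected at 0, 12, 24 and 40 h, which gives 8 groups of 2 libraries, 16 in all. The protocol text lists only 24 and 40 h for the serum cells, and the sample titles, which were followed here, also give 12 h. Nothing in the labels says that the 2 libraries of a group came from separate cultures, so p-values measure only the spread between these libraries, which may be technical. The cell line is not named, and RNA was measured, not uptake.

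Library totals ran from 5931381 to 11142744 counts, with 16393 to 18392 genes detected. The cell type was checked against marker genes: the summed level of 8 pluripotency genes was 5430 to 5880 CPM (counts scaled to a common library total) at 0 h and 1270 to 1330 CPM at 40 h, and Pou5f1 had a group mean of at least 635 CPM throughout. Markers of other cells were low but moved with time: 4 neural progenitor genes summed to 13.4 to 33.8 CPM at 0 h and 73.8 to 86.8 CPM at 40 h, while 6 trophoblast genes went from 71.1 to 83.4 CPM down to 5.84 to 9.39 CPM and 4 mesoderm genes from 14.8 to 32.4 CPM down to 1.49 to 2.42 CPM. Single genes made most of the last sums at 0 h: Tfap2c (62.8 and 55.4 CPM in 2i/LIF and serum cells) and T (28 and 16.1 CPM). Not every gene followed its sum. Utf1 rose from 20 to 400 CPM and from 45.9 to 366 CPM by 40 h. Pou5f1 ended near its start, at 641 and then 635 CPM in 2i/LIF cells and 707 and then 676 CPM in serum cells. The remaining pluripotency genes ended lower. Over all groups, 6 primitive endoderm genes summed to 2.54 to 16.2 CPM and 5 fibroblast genes to 1.78 to 10.5 CPM, with Postn at 0 counts in every library. In bulk RNA a change in the share of cells that express a gene and a change in RNA per cell cannot be told apart, and the part of these marker shifts in the results was not tested.

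Promoter sequence is shown for 4 of the genes that rose in both media by 40 h. The RefSeq promoter table (GRCm38.p6) has an entry for 6 of the 9 genes, and none for Rac1, Arf6 and Cttn. Each line gives the 250 bases before the annotated start, 5′ to 3′ on the gene's strand. Capitals mark the half-site of CREB/ATF factors (CRE half-site) in the first of 2 entries for Pak1, chr7:97788291-97788540 on the plus strand. They mark the CRE half-site and the AP-1 motif in Actn4, chr7:28962333-28962582 on the minus strand. In Ctbp1, chr5:33275005-33275254 on the minus strand, and in Sdc1, chr12:8771146-8771395 on the plus strand, they mark the SP1 motif.
Pak1: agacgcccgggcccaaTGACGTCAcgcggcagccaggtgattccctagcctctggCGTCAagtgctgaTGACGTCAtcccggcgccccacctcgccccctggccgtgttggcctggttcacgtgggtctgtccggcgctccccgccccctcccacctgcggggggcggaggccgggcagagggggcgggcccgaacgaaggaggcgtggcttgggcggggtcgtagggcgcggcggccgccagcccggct
Actn4: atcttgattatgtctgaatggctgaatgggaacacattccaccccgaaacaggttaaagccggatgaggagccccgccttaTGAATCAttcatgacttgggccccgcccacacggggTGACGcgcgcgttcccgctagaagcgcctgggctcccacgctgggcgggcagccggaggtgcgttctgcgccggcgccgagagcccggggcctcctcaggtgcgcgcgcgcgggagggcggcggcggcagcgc
Ctbp1: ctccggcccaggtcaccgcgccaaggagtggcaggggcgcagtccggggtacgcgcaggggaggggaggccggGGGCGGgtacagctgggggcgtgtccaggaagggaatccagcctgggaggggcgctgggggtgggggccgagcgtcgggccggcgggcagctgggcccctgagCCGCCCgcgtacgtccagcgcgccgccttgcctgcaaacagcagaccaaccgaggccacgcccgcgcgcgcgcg
Sdc1: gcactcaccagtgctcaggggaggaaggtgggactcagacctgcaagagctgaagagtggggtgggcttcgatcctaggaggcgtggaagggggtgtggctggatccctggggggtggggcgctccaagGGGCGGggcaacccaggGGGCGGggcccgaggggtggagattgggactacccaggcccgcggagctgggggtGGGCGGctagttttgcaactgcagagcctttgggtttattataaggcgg

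The motifs were searched on both strands and were spelled TGACG for the CRE half-site, TGANTCA for AP-1, GGGCGG for SP1, GGAATG for TEAD factors and CACGTG for the E-box, with the CArG box of serum response factor beside them. Pak1 held 5 matches of the CRE half-site, where a stretch that reads as the motif on both strands counts as 2, with 4 of SP1 and 1 E-box. The table has a second entry for Pak1, at chr7:97842689-97842938, which held 3 matches of SP1 and none of the other motifs; which start these cells use was not tested. Actn4 held 1 match each of the CRE half-site, AP-1 and TEAD and 3 of SP1. Ctbp1 held 2 matches of SP1 and Sdc1 held 3, with none of the other motifs. Over 32851 promoters of the same length the SP1 motif occurred in 32.7%, the CRE half-site in 17.8%, the TEAD motif in 12.6%, AP-1 in 6.75%, the E-box in 6.02% and the CArG box in 1.47%. The SP1 motif was the only one searched that these 4 promoters share, and Cdc42, with 2 matches, holds it too. These are matches of letters and were not tested as binding sites.

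At 40 h all 9 genes differed from 0 h in both media at an adjusted p under 0.05 (edgeR quasi-likelihood test). Among all tested genes 68.8% were called in 2i/LIF cells and 70.5% in serum cells, so a call by itself sets these genes little apart. Sdc1, Pak1, Actn4, Ctbp1 and Rac1 were higher in both media. Arf6, Cttn and Ankfy1 were lower in both, and Cdc42 was slightly higher in 2i/LIF cells and slightly lower in serum cells. This makes 6 higher and 3 lower for 2i/LIF cells, beside 34.1% and 34.7% of all tested genes, and 5 higher and 4 lower for serum cells, beside 35.3% in each direction. Most shifts were small: 7 of the 9 genes in 2i/LIF cells and 6 of the 9 in serum cells changed by less than 0.5 on the log2 scale. The median log2 change of the 9 was 0.25 and 0.14 in these media, beside medians of 0.01 and 0.00 over all tested genes. At 12 h 5 genes were called in 2i/LIF cells (44.7% of all tested) and 6 in serum cells (51.2%), and at 24 h 7 in each (58.8% and 64.4%). All time points of a medium were compared with the same 0 h libraries. In the plot of levels by library, the early peak of Actn4, the steady rise of Sdc1 in 2i/LIF cells and the late decline of Arf6 stand out.

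**Figure D1:**
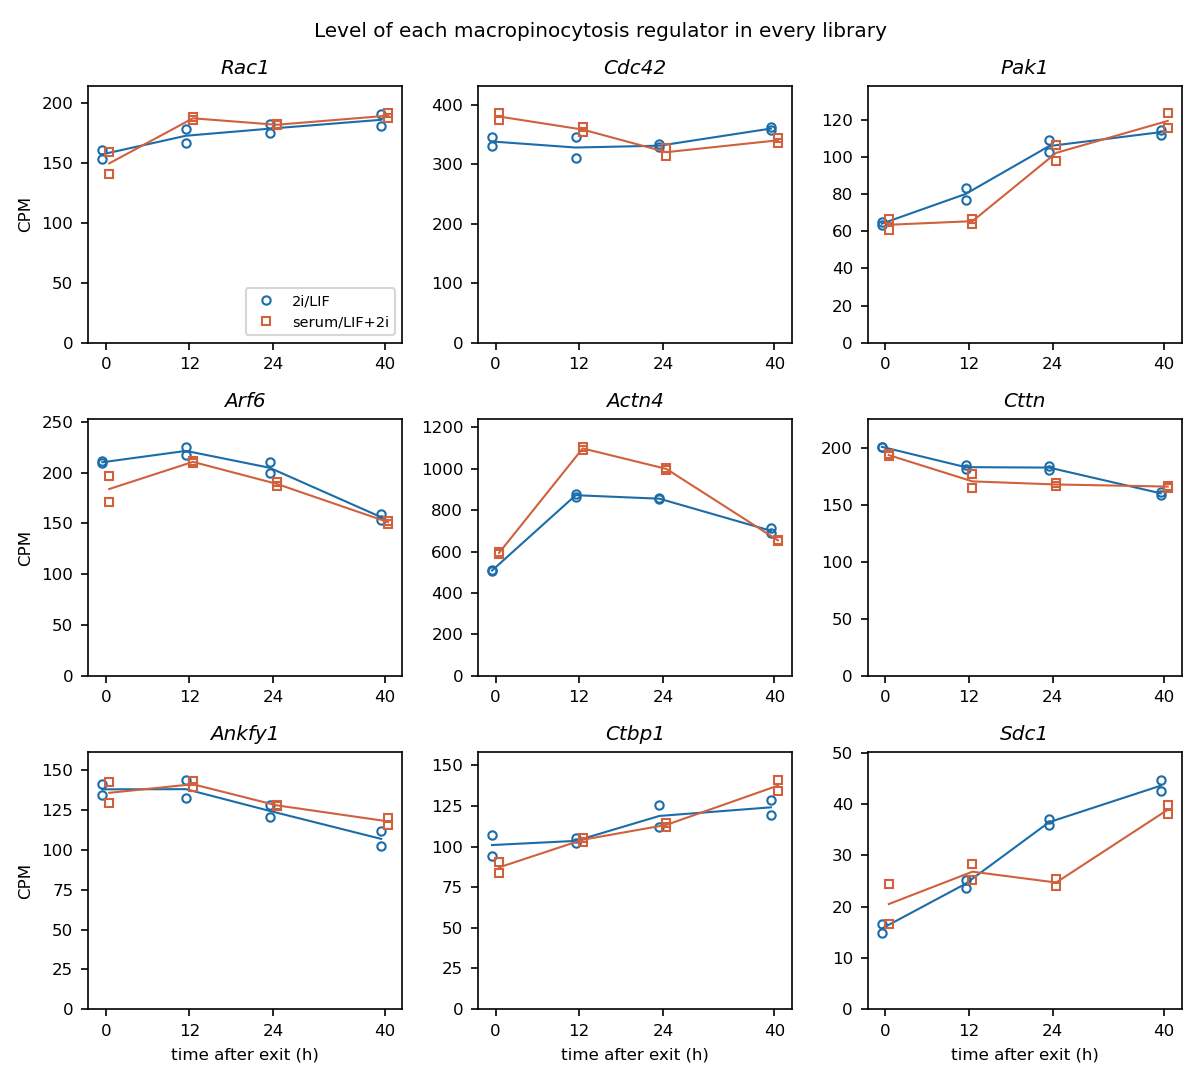
Level (CPM, y axis from 0) of the 9 regulators in each of the 16 libraries against time after the start of exit (h), with blue circles for 2i/LIF, orange squares for serum/LIF+2i and lines through the group means of 2 libraries. In 2i/LIF Actn4 goes from 506 and 511 CPM at 0 h to 879 and 865 CPM at 12 h and falls back later, while Sdc1 climbs from 16.5 and 14.9 CPM to 42.5 and 44.7 CPM.

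Rac1 (chr5:143505481-143528031, minus strand), the GTPase that drives ruffles, rose by a modest amount in both media. In 2i/LIF cells it stood at 161 and 153 CPM at 0 h, 167 and 178.5 at 12 h, 182 and 175 at 24 h, and 191 and 181 at 40 h. Serum cells had 159 and 140.3 CPM at 0 h, 188 and 186 at 12 h, 182 and 181 at 24 h, and 187.5 and 191 at 40 h. Every later library lay above the 0 h libraries of its medium. The log2 change at 40 h was 0.25 ± 0.05 (SE) for 2i/LIF cells (edgeR adjusted p = 1.05e-05) and 0.34 ± 0.05 for serum cells (adjusted p = 5.46e-10). Serum cells had risen by 12 h, at 0.32 ± 0.05, and neither later step was called. In 2i/LIF cells the 12 h value was 0.14 ± 0.05 (adjusted p = 0.0218), a call lost without 2i/LIF 0 h replicate 2 (0.105) or 2i/LIF 12 h replicate 2 (0.09) and in DESeq2 (adjusted p = 0.0924). In the GENCODE annotation exons of Daglb overlap those of Rac1 by 2309 bases on the opposite strand. The deposited length of Rac1 is 2269 bases, so the exons that were counted differ from these. Whether the authors counted by strand is not given in the sources used here. Daglb itself had 1.11 to 6 CPM, which does not show how many Rac1 reads such an overlap could affect.

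Cdc42 (chr4:137319696-137357759, minus strand), the small GTPase of filopodia and cell polarity, had the smallest change of the 9 at 40 h in 2i/LIF cells, and the direction at 40 h depended on the medium. In 2i/LIF cells the levels were 346 and 331 CPM at 0 h, 345 and 312 at 12 h, 329 and 334 at 24 h, and 363 and 358 at 40 h. In serum cells they were 386 and 376 CPM at 0 h, 355 and 363 at 12 h, 314 and 327 at 24 h, and 337 and 345 at 40 h. The 0 h libraries of the serum cells were the highest of all 16, and their 24 h libraries lay below every 2i/LIF library other than 1 of the 12 h pair. In serum cells Cdc42 fell by 0.25 ± 0.04 on the log2 scale at 24 h (edgeR adjusted p = 2.99e-08) and by 0.16 ± 0.04 at 40 h (adjusted p = 0.000159), and the second call was lost when only library totals set the scale (-0.08, adjusted p = 0.0543). The rise of 2i/LIF cells at 40 h, 0.09 ± 0.04 (adjusted p = 0.0410), was lost in DESeq2 (adjusted p = 0.0559), with no filter on low counts (0.0547) and without 2i/LIF 0 h replicate 2 (0.06), 2i/LIF 40 h replicate 1 (0.08) or 2i/LIF 40 h replicate 2 (0.10). At 12 h the value in 2i/LIF cells was -0.04 ± 0.04 and became a call without 2i/LIF 12 h replicate 1 (-0.12).

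Pak1 (chr7:97788541-97912381, plus strand) came close to doubling in both media. The 2i/LIF cells had 63.4 and 64.9 CPM at 0 h, 83.2 and 77.0 at 12 h, 103 and 109 at 24 h, and 115 and 112 at 40 h. The serum cells had 60.5 and 66.5 CPM at 0 h, 66.8 and 64.2 at 12 h, 106 and 98.1 at 24 h, and 123.5 and 115.5 at 40 h. In 2i/LIF cells every time point lay above the one before, whereas in serum cells the 12 h libraries overlapped those of 0 h. The log2 change at 12 h was 0.32 ± 0.07 for 2i/LIF cells (edgeR adjusted p = 8.38e-05) and 0.04 ± 0.07 for serum cells (adjusted p = 0.666). At 40 h it was 0.82 ± 0.07 and 0.91 ± 0.06, or 1.77-fold and 1.88-fold (adjusted p = 6.54e-22 and 2.43e-27). Changes of at least this size were seen in 36.3% and 32.7% of tested genes.

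Arf6 (chr12:69372150-69375980, plus strand), the GTPase of the cell surface and recycling endosomes, declined late. It was at 211 and 209 CPM in 2i/LIF cells at 0 h, 217 and 225 at 12 h, 210.3 and 199 at 24 h, and 159 and 153 at 40 h. It was at 197 and 171 CPM in serum cells at 0 h, 211.5 and 209.5 at 12 h, 191 and 187 at 24 h, and 153 and 149.7 at 40 h. The 40 h libraries were the lowest of each medium. Between 24 and 40 h Arf6 fell by 0.39 ± 0.05 in log2 units in 2i/LIF cells (edgeR adjusted p = 1.51e-11) and by 0.32 ± 0.05 in serum cells (adjusted p = 1.66e-09). Against 0 h the change at 40 h was -0.43 ± 0.05 and -0.28 ± 0.05, the second being -0.18 and still called without serum 0 h replicate 1. Before that, at 12 h, Arf6 was higher in serum cells (0.20 ± 0.05, adjusted p = 0.000253), a call lost without serum 0 h replicate 2 (0.10) and larger without serum 0 h replicate 1 (0.30). At 24 h their value of 0.04 ± 0.05 became a call without serum 0 h replicate 1 (0.145). Exons of Gm9887, a gene not analysed here, overlap Arf6 by 209 bases on the opposite strand.

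Actn4 (chr7:28893248-28962351, minus strand) had the highest level per length of the 9 and an early, transient course. Its levels in 2i/LIF cells were 506 and 511 CPM at 0 h, 879 and 865 at 12 h, 856.5 and 854 at 24 h, and 712 and 688 at 40 h. Its levels in serum cells were 598 and 588 CPM at 0 h, 1090 and 1106 at 12 h, 1005 and 993 at 24 h, and 655.5 and 653 at 40 h. No library of a later time point overlapped the 0 h libraries of its medium. At 12 h the log2 change was 0.78 ± 0.04 for 2i/LIF cells and 0.89 ± 0.03 for serum cells (edgeR adjusted p = 2.78e-41 and 1.19e-47), and 21.1% and 20.4% of tested genes changed at least as much. From 24 to 40 h it fell by 0.29 ± 0.03 and by 0.61 ± 0.03 on the same scale. At 40 h it was still above 0 h by 0.46 ± 0.04 in 2i/LIF cells and 0.14 ± 0.03 in serum cells. The serum value was 0.22 when only library totals set the scale. Capn12, which shares 316 exonic bases with Actn4 on the opposite strand, had 0 to 3.26 CPM.

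Cttn (chr7:144435724-144471560, minus strand) was lower than at 0 h at every later time. It went from 201 and 201 CPM at 0 h to 159 and 161 CPM at 40 h in 2i/LIF cells, and from 193 and 194 CPM to 165 and 167 CPM in serum cells. The 0 and 40 h groups did not overlap in either medium. Between them the levels were 181 and 185 CPM at 12 h and 181 and 184 at 24 h in 2i/LIF cells, and 164 and 177 and 169 and 167 in serum cells. The log2 change at 40 h was -0.33 ± 0.05 (edgeR adjusted p = 1.79e-09) and -0.22 ± 0.05 (adjusted p = 9.06e-06), the second being -0.14 and still called when only library totals set the scale. At 12 h it was -0.13 ± 0.05 and -0.18 ± 0.05. The 12 h call for 2i/LIF cells was lost without 2i/LIF 0 h replicate 1 (-0.13), 2i/LIF 0 h replicate 2 (-0.13) or 2i/LIF 12 h replicate 1 (-0.12), in DESeq2 (adjusted p = 0.0773), with no filter on low counts (0.0543) and without ribosomal RNA genes (0.0754). The 24 h call (-0.14) was lost without 2i/LIF 24 h replicate 1 (-0.12), and the 12 h call for serum cells without serum 12 h replicate 1 (-0.12). Serum cells showed no called step after 12 h, and in 2i/LIF cells Cttn fell by a further 0.19 ± 0.05 between 24 and 40 h (adjusted p = 0.000526).

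The endosomal and fission genes moved in opposite directions. Ankfy1 (chr11:72690002-72772146, plus strand) was at 141.5 and 135 CPM at 0 h and 102 and 112 CPM at 40 h in 2i/LIF cells. For serum cells these levels were 129 and 142.5 CPM and 116 and 120.2 CPM. The 40 h libraries lay below the 0 h libraries in both media, and Ankfy1 fell by 0.37 ± 0.06 in log2 units in 2i/LIF cells (edgeR adjusted p = 1.23e-08) and by 0.20 ± 0.05 in serum cells (adjusted p = 0.000413). The second call was lost without serum 0 h replicate 2 (-0.13), and with scaling by library totals its value was also -0.13 but still called. At 24 h the value of 2i/LIF cells was -0.15 ± 0.06, a call lost without 2i/LIF 0 h replicate 1 (-0.12) or 2i/LIF 24 h replicate 2 (-0.105), in DESeq2 (adjusted p = 0.0916) and with scaling by library totals (0.0603), and that of serum cells, -0.09 ± 0.05 (adjusted p = 0.157), became a call without serum 0 h replicate 1 (-0.155).

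Ctbp1 (chr5:33247723-33275004, minus strand) rose more in serum cells. It had 107 and 94.5 CPM at 0 h in 2i/LIF cells, 105 and 102 at 12 h, 125 and 112 at 24 h, and 129 and 119.6 at 40 h. It had 90.4 and 84.0 CPM at 0 h in serum cells, 103 and 105.5 at 12 h, 112 and 115 at 24 h, and 134 and 141 at 40 h. The serum cells began below the 2i/LIF cells and ended above them, with no overlap at either time. The log2 change at 40 h was 0.30 ± 0.06 for 2i/LIF cells (edgeR adjusted p = 4.89e-06) and 0.66 ± 0.06 for serum cells (adjusted p = 1.02e-19), or 1.235-fold and 1.58-fold. At 12 h a rise was called in serum cells, at 0.26 ± 0.06, and the value of 2i/LIF cells was 0.04 ± 0.06. The 24 h call for 2i/LIF cells, 0.24 ± 0.06, was lost without 2i/LIF 0 h replicate 2 (0.15) or 2i/LIF 24 h replicate 1 (0.16).

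Sdc1 (chr12:8771396-8793716, plus strand) had the largest change of the 9 at 40 h and the lowest level per length. In 2i/LIF cells it was at 16.5 and 14.9 CPM at 0 h, 25.2 and 23.7 at 12 h, 37.1 and 35.9 at 24 h, and 42.5 and 44.7 at 40 h. Each time point lay above the one before it. The log2 change reached 0.64 ± 0.14 at 12 h, 1.22 ± 0.13 by 24 h and 1.47 ± 0.12 at 40 h (edgeR adjusted p = 3.45e-05, 1.84e-15 and 1.13e-21). This is 2.78-fold at 40 h, and 21.3% of tested genes changed at least as much then.

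Serum cells followed another course for Sdc1. They had 16.6 and 24.4 CPM at 0 h, 28.4 and 25.2 at 12 h, 24.0 and 25.4 at 24 h, and 38.0 and 39.8 at 40 h. The 0 h libraries differed from each other more than any other pair of this gene, and the 12 and 24 h libraries overlapped. The rise to 40 h was 0.92 ± 0.11 on the log2 scale, or 1.895-fold (edgeR adjusted p = 2.03e-13), and the step from 24 to 40 h was 0.65 ± 0.09 (adjusted p = 2.8e-09). Leaving out either 0 h library gave 0.67 and 1.23 at 40 h, both still called. The earlier values depended on single libraries. At 12 h the value was 0.38 ± 0.12 (adjusted p = 0.00527), lost without serum 0 h replicate 1 (0.13) or serum 12 h replicate 1 (0.31) and larger without serum 0 h replicate 2 (0.69). At 24 h it was 0.27 ± 0.12 (adjusted p = 0.0406), lost without serum 0 h replicate 1 (0.02), serum 24 h replicate 1 (0.31) or serum 24 h replicate 2 (0.23), larger without serum 0 h replicate 2 (0.585), and lost in DESeq2 (adjusted p = 0.110) and when only the groups compared were fitted (0.0701). The plot of changes against 0 h shows the wide interval of Sdc1 beside the narrow one of Actn4.

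**Figure D2:**
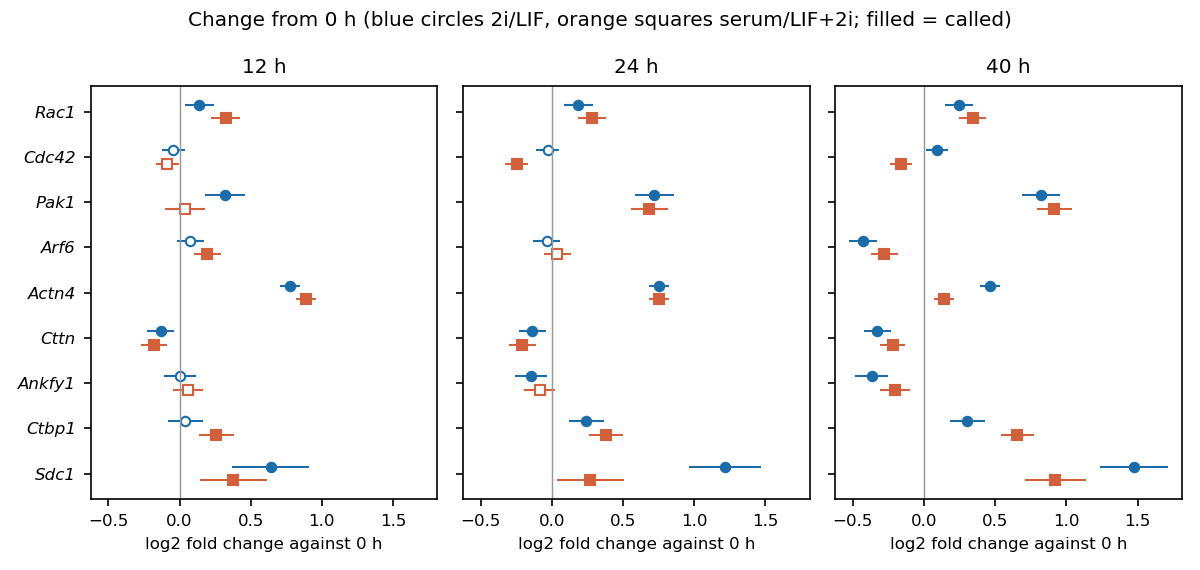
Log2 fold change against 0 h (x axis) of each regulator at 12, 24 and 40 h, with 95% confidence intervals from edgeR; blue circles stand for 2i/LIF and orange squares for serum/LIF+2i, filled where the adjusted p is under 0.05. At 40 h every symbol is filled, from -0.43 for Arf6 to 1.47 for Sdc1, both in 2i/LIF.

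Between neighbouring time points after 12 h, 4 of the 9 genes changed from 12 to 24 h in 2i/LIF cells (35.1% of all tested) and 6 from 24 to 40 h (46.7%). For serum cells it was 5 (48.4%) and 6 (50.5%). The largest of these later steps were those of Sdc1 from 24 to 40 h in serum cells, 0.65 ± 0.09 on the log2 scale, Pak1 from 12 to 24 h in the same cells, 0.64 ± 0.06, Actn4 from 24 to 40 h in them, -0.61 ± 0.03, and Sdc1 from 12 to 24 h in 2i/LIF cells, 0.58 ± 0.11 (edgeR adjusted p between 1.15e-33 and 6.69e-06). The changes of Actn4 from 0 to 12 h, 0.78 and 0.89, were larger than all of these. Cdc42 rose by 0.12 ± 0.04 from 24 to 40 h in 2i/LIF cells, lost without 2i/LIF 24 h replicate 1 (0.11) or 2i/LIF 40 h replicate 1 (0.11), and fell by 0.16 ± 0.04 from 12 to 24 h in serum cells. In 2i/LIF cells Sdc1 rose by 0.255 ± 0.10 from 24 to 40 h, lost without 2i/LIF 24 h replicate 1 (0.28), 2i/LIF 24 h replicate 2 (0.23) or 2i/LIF 40 h replicate 2 (0.22). DESeq2 did not call this step (adjusted p = 0.112). Ctbp1 rose by 0.20 ± 0.06 from 12 to 24 h in 2i/LIF cells, lost without 2i/LIF 12 h replicate 2 (0.175) or 2i/LIF 24 h replicate 1 (0.12). DESeq2 did not call this rise either (adjusted p = 0.0549). For Ankfy1 DESeq2 called only the step from 24 to 40 h in 2i/LIF cells. Its adjusted p was 0.121 for 12 to 24 h in 2i/LIF cells and 0.108 and 0.237 for the serum steps. With scaling by library totals neither serum step was called. In the main edgeR fit Ankfy1 was called in all 4 steps, with values of -0.15 and -0.22 in 2i/LIF cells and -0.14 and -0.12 in serum cells. These calls were lost, in that order, without 2i/LIF 12 h replicate 1 (-0.09) or 2i/LIF 24 h replicate 2 (-0.11); without 2i/LIF 40 h replicate 1 (-0.16); without serum 12 h replicate 2 (-0.12), serum 24 h replicate 1 (-0.15) or serum 24 h replicate 2 (-0.14); and without serum 24 h replicate 1 (-0.12), serum 24 h replicate 2 (-0.12) or serum 40 h replicate 1 (-0.10). Steps just short of the threshold became calls for Arf6 from 12 to 24 h in 2i/LIF cells (-0.11 ± 0.05, adjusted p = 0.0544) without 2i/LIF 0 h replicate 1 (-0.12), 2i/LIF 0 h replicate 2 (-0.12), 2i/LIF 24 h replicate 1 (-0.15), 2i/LIF 40 h replicate 1 (-0.11), 2i/LIF 40 h replicate 2 (-0.11), serum 0 h replicate 1 (-0.11), serum 0 h replicate 2 (-0.12), serum 12 h replicate 1 (-0.12), serum 40 h replicate 1 (-0.12) or serum 40 h replicate 2 (-0.12), for Ctbp1 in the same interval in serum cells (0.12 ± 0.06) without serum 0 h replicate 2 (0.13), and for Cdc42 from 24 to 40 h in serum cells (0.09 ± 0.04) without serum 0 h replicate 1 (0.08) or serum 24 h replicate 2 (0.12).

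The media themselves were compared at each time, as serum/LIF+2i minus 2i/LIF. At 0 h 5 of the 9 genes differed (33% of all tested). Actn4 was higher with serum by 0.22 ± 0.04 on the log2 scale, Cdc42 by 0.17 ± 0.04 and Sdc1 by 0.39 ± 0.14, and Arf6 (-0.19 ± 0.05) and Ctbp1 (-0.21 ± 0.07) were lower (edgeR adjusted p between 1.39e-07 and 0.0279). The difference of Sdc1 moved with its 1 high library: it was 0.08 without serum 0 h replicate 2 (adjusted p = 0.806) and 0.64 without replicate 1, and the call was also lost without 2i/LIF 0 h replicate 1 (0.45) or 2 (0.30). That of Arf6 was lost without serum 0 h replicate 2 (-0.10) and larger without serum 0 h replicate 1 (-0.30), and that of Ctbp1 was lost without 2i/LIF 0 h replicate 1 (-0.125) or serum 0 h replicate 2 (-0.16). Rac1, at -0.07 ± 0.05, became a call without serum 0 h replicate 1 (-0.16). DESeq2 called Actn4, Cdc42 and Arf6.

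At 12 h 3 genes were called (30.3%): Actn4 at 0.33 ± 0.03 and Cdc42 at 0.13 ± 0.04 were higher in serum cells, and Pak1 at -0.29 ± 0.07 was lower (edgeR adjusted p between 4.66e-15 and 0.00849). The call of Cdc42 was lost without 2i/LIF 12 h replicate 2 (0.05) or serum 12 h replicate 2 (0.11) and its value larger without 2i/LIF 12 h replicate 1 (0.20). DESeq2 did not call Cdc42 at this time (adjusted p = 0.0507). Rac1 (0.12 ± 0.05) became a call without 2i/LIF 12 h replicate 2 (0.16) or serum 0 h replicate 1 (0.115), and Cttn (-0.10 ± 0.05) without serum 12 h replicate 2 (-0.16). At 24 h 4 were called (31.1%): Actn4 at 0.22 ± 0.03, Sdc1 at -0.56 ± 0.10, and Arf6 and Cttn at -0.12 ± 0.05 and -0.12 ± 0.05, with an edgeR adjusted p of 0.0453 and 0.0359 for the last pair. The calls of Arf6 and Cttn were lost in DESeq2 (0.225 and 0.167) and under both other scalings and both other filters tried. Arf6 stayed called only without 2i/LIF 24 h replicate 2, either 2i/LIF 40 h library, serum 0 h replicate 1 or serum 12 h replicate 2, and Cttn only without the last 4 of these; leaving out any other library lost the call, at -0.13 to -0.08 for Arf6 and -0.14 to -0.11 for Cttn.

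At 40 h 3 genes differed between the media (27.3%): Ctbp1 at 0.14 ± 0.05 and Ankfy1 at 0.14 ± 0.05 were higher in serum cells, and Actn4 at -0.10 ± 0.03 was lower (edgeR adjusted p = 0.0306, 0.0403 and 0.0221). None of these calls was stable to leaving out a library. Ctbp1 lost its call without 2i/LIF 40 h replicate 2 (0.09) or serum 40 h replicate 2 (0.10), Actn4 without 2i/LIF 40 h replicate 1 (-0.07), serum 40 h replicate 1 (-0.105) or serum 40 h replicate 2 (-0.10), and Ankfy1 without 2i/LIF 0 h replicate 1 (0.14), 2i/LIF 0 h replicate 2 (0.14), 2i/LIF 12 h replicate 1 (0.14), 2i/LIF 12 h replicate 2 (0.14), 2i/LIF 40 h replicate 1 (0.08), serum 12 h replicate 1 (0.14), serum 40 h replicate 1 (0.17) or serum 40 h replicate 2 (0.11). DESeq2 called Actn4 alone.

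Whether exit changed the genes differently in these media was tested directly, as the change in serum cells minus that in 2i/LIF cells. At 12 h 0 of the 9 were called in edgeR, beside 9.2% of all tested genes. DESeq2 called 0 of the 9 as well, and 574 genes over all tested. The value of Pak1 was -0.28 ± 0.10 (adjusted p = 0.0659), which did not pass the threshold. Without serum 0 h replicate 1 Pak1 (-0.35), Rac1 (0.275) and Arf6 (0.225) became calls, as did Ctbp1 without 2i/LIF 0 h replicate 2 (0.31). At 24 h 2 were called (20.8%): Sdc1 at -0.95 ± 0.18 (edgeR adjusted p = 1e-05) and Cdc42 at -0.22 ± 0.06 (adjusted p = 0.00233). The difference of Sdc1 stayed called with any library left out and was smallest without serum 0 h replicate 2 (-0.63), and 12.0% of tested genes had a difference at least as large. That of Cdc42 was lost without 2i/LIF 0 h replicate 2 (-0.17).

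At 40 h 4 of the 9 had changed differently (27.6% of all tested). Actn4 had gained less in serum cells (-0.32 ± 0.05, edgeR adjusted p = 7.11e-08), Cdc42 had fallen where it rose in 2i/LIF cells (-0.25 ± 0.06, adjusted p = 0.000214), Ctbp1 had gained more (0.35 ± 0.08, adjusted p = 0.000551) and Sdc1 less (-0.55 ± 0.17, adjusted p = 0.00802). The first 3 stayed called with any library left out. Sdc1 did not: its call was lost without 2i/LIF 0 h replicate 2 (-0.47) or serum 0 h replicate 2 (-0.25), and DESeq2 gave an adjusted p of 0.0623. For Rac1 (0.10 ± 0.07, 95% interval -0.04 to 0.235), Pak1 (0.09 ± 0.09, -0.09 to 0.28) and Cttn (0.11 ± 0.07, -0.03 to 0.24) no difference was called, and these intervals still allow small ones. Arf6 and Ankfy1, at 0.15 ± 0.07 and 0.16 ± 0.08, were not called, but Arf6 was without serum 0 h replicate 1 (0.25) and Ankfy1 without 2i/LIF 40 h replicate 2 (0.23) or serum 0 h replicate 2 (0.24).

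**Figure D3:**
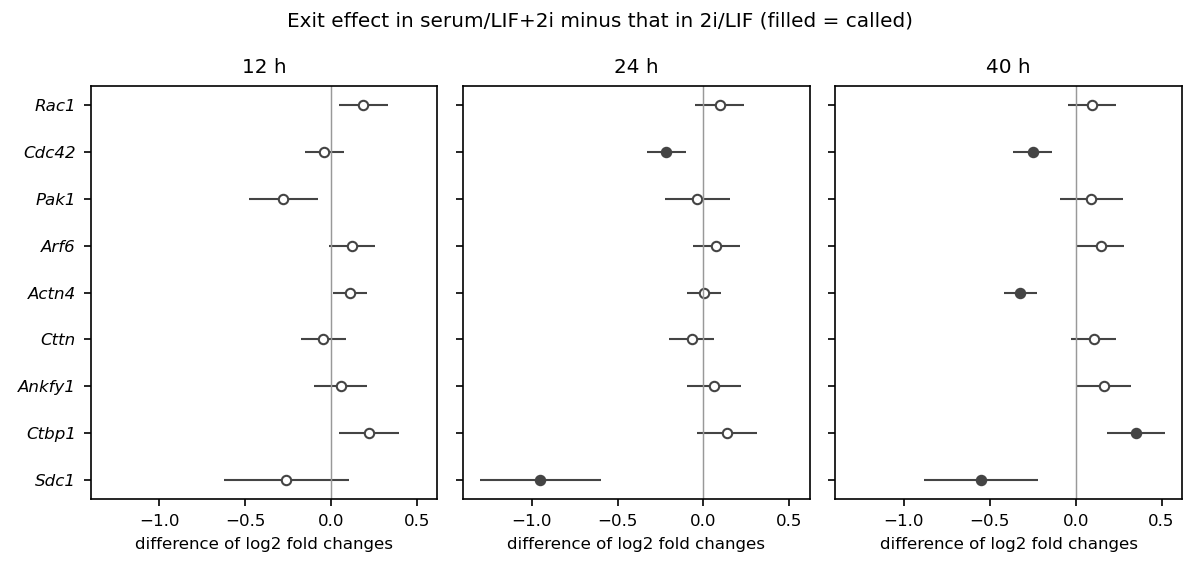
Exit effect in serum/LIF+2i minus that in 2i/LIF (x axis, difference of log2 fold changes) for each regulator at 12, 24 and 40 h, with 95% confidence intervals from edgeR and filled symbols where the adjusted p is under 0.05. Filled are Sdc1 (-0.95) and Cdc42 (-0.22) at 24 h, and Sdc1 (-0.55), Actn4 (-0.32), Cdc42 (-0.25) and Ctbp1 (0.35) at 40 h.

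Compared per length (RPKM, CPM per kilobase of the gene length in the table), Actn4, Cdc42 and Rac1 had ranges over the 8 group means that overlapped with no other of the 9 genes. Actn4 was highest, at 133 to 288 RPKM, followed by Cdc42 at 107 to 127, Rac1 at 65.9 to 83.4 and Cttn at 49.7 to 62.3. Arf6 lay at 40.5 to 59.3 and Ctbp1 at 35.1 to 55.4, which overlap each other and, in part, Cttn. Pak1 followed at 20.8 to 39.05, reaching into the range of Ctbp1. Ankfy1, at 13.3 to 17.6, and Sdc1, at 5.14 to 14.3, were lowest and overlapped each other. The ratio of Rac1 to Cdc42 per length was 0.613 to 0.615 in the 2i/LIF libraries at 0 h and 0.668 to 0.698 at 40 h. In the serum cells it was 0.495 to 0.545 at 0 h and 0.734 to 0.738 at 40 h.

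Paralogs of several regulators moved the other way, so the makeup of their families shifted, as the stacked plot of levels per length shows. Among the alpha-actinins, Actn1, the other main non-muscle form, fell from 106 to 50.6 RPKM in 2i/LIF cells and from 104 to 51.6 RPKM in serum cells (log2 change at 40 h -1.07 ± 0.04 and -1.01 ± 0.04, edgeR adjusted p = 3.24e-46 and 8.67e-46). The ratio of Actn4 to Actn1 was 1.21 to 1.31 in the 2i/LIF libraries at 0 h, 3.4 to 3.56 at 12 h and 3.62 to 3.64 at 40 h. The serum libraries had 1.48 to 1.52 at 0 h, 5.67 to 6.1 at 24 h and 3.29 to 3.36 at 40 h. Actn3, known from fast muscle fibres, rose from 1.215 to 15.9 RPKM and from 1.055 to 20.4 RPKM (log2 change 3.70 ± 0.16 and 4.27 ± 0.15, adjusted p = 2.07e-43 and 3.39e-53). Actn2, a sarcomere form, rose to 1.02 and 1.505 RPKM. How reads that match several paralogs were counted is not given in the sources used here.

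Among the syndecans, Sdc1 rose while Sdc4, Sdc2 and Sdc3 fell. Sdc4, the widely expressed syndecan of focal adhesions, went from 50.6 to 17.0 RPKM in 2i/LIF cells and from 51.9 to 11.7 RPKM in serum cells (log2 change at 40 h -1.57 ± 0.07 and -2.15 ± 0.07, edgeR adjusted p = 4.51e-42 and 1.85e-56). Sdc2 changed by -1.23 ± 0.10 and -1.24 ± 0.10, and Sdc3, under 1 RPKM throughout, by -1.91 ± 0.43 and -0.86 ± 0.31. Sdc1 made up 6.89% of the summed syndecan RPKM at 0 h and 36.4% at 40 h for 2i/LIF cells, and 9.05% and 40.9% for serum cells, while the sum itself became smaller. Sdc4 fell further in serum cells (difference -0.58 ± 0.10, adjusted p = 3.03e-06).

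The PAK family shifted toward Pak1. Pak2 fell by 0.32 ± 0.05 in log2 units at 40 h in 2i/LIF cells and by 0.17 ± 0.05 in serum cells, and Pak4 fell by 0.72 ± 0.06 and by 0.61 ± 0.06 (edgeR adjusted p between 1.2e-20 and 0.000957). Pak1 stood at 0.473 to 0.478 times the level per length of Pak2 in the 2i/LIF libraries at 0 h and 1.01 to 1.09 times at 40 h. The ratios for serum cells were 0.468 to 0.544 and 1.01 to 1.13. Its share of the summed PAK RPKM went from 19.3% to 36.6% and from 20.1% to 37.5%. Pak3, best known from neurons, reached 1.63 and 1.11 RPKM at 40 h, at least 22.4-fold higher than at 0 h in serum cells, where each 0 h library was under the floor of 3 counts. Pak6 was at least 7.14-fold higher in 2i/LIF cells by the same floor, and Pak5 was not analysed here.

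Ctbp2 rose with Ctbp1, by 0.76 ± 0.04 in log2 units at 40 h in 2i/LIF cells and 0.63 ± 0.04 in serum cells (edgeR adjusted p = 3.25e-36 and 3.64e-30), and was the more abundant of the pair per length in every group. Dbnl, an actin-binding protein that was listed beside cortactin, fell by 0.24 ± 0.06 and by 0.15 ± 0.06 (adjusted p = 0.000412 and 0.0265). Hcls1, the cortactin of blood cells, was too low to test. In the ARF family Arf4 rose in both media (0.20 ± 0.05 and 0.33 ± 0.05) and Arf5 fell in both (-0.27 ± 0.08 and -0.54 ± 0.07). Arf1 gave 0.08 ± 0.04 in 2i/LIF cells (adjusted p = 0.0609) and 0.16 ± 0.04 in serum cells (adjusted p = 0.000296). Arf3 fell by 0.10 ± 0.04 in 2i/LIF cells and rose by 0.15 ± 0.04 in serum cells, a difference that was called (0.25 ± 0.06, adjusted p = 0.000763), and Arf2 was called in neither (0.01 ± 0.12 and -0.13 ± 0.11). Arf6 went from 0.368 to 0.377 times Arf1 per length at 0 h to 0.26 to 0.263 times at 40 h in 2i/LIF cells, and from 0.327 to 0.402 to 0.263 to 0.274 times in serum cells.

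Among the GTPases related to Rac1 and Cdc42, Rac2, the form of blood cells, dropped from 2.58 RPKM at 0 h to 0.129 RPKM at 40 h in 2i/LIF cells, at least 20-fold lower since each 40 h library was at the floor of 3 counts. Serum cells began at 0.363 RPKM. Rac3 and Rhog gave 0.02 ± 0.17 and 0.01 ± 0.17 in log2 units in 2i/LIF cells at 40 h and rose in serum cells by 0.74 ± 0.17 and 0.71 ± 0.18 (edgeR adjusted p = 6.97e-05 and 0.000226). The difference between media was called for both (adjusted p = 0.0176 and 0.0272). Rhoq, a relative of Cdc42, rose in both media, by 0.97 ± 0.14 and 0.97 ± 0.12. Rhou rose in serum cells (0.47 ± 0.13) and gave 0.05 ± 0.14 in 2i/LIF cells, a difference that was not called (adjusted p = 0.0959). Rhov was called in neither medium, and Rhoj was too low to test.

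**Figure D4:**
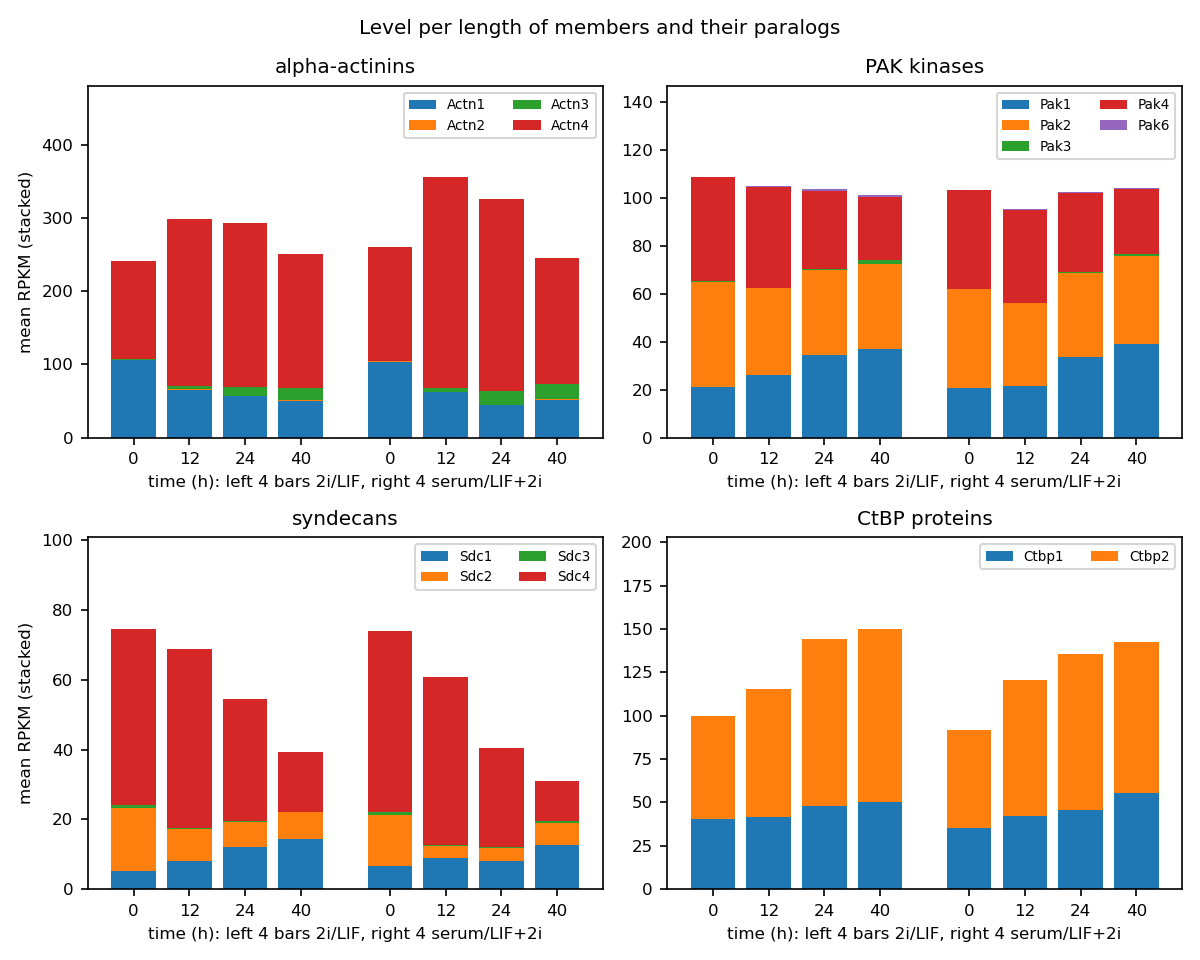
Mean level per length (RPKM, y axis, stacked, n = 2 libraries per bar) of the members and paralogs of 4 families; the left 4 bars of each panel are 2i/LIF and the right 4 serum/LIF+2i at 0, 12, 24 and 40 h. The Actn1 segment shrinks from 106 to 50.6 RPKM in 2i/LIF, and the Sdc1 segment grows to 36.4% and 40.9% of the syndecan bar at 40 h.

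Around these regulators, 10 lists of other pathway genes held 157 tested genes besides the 9. At 40 h 128 of them, 81.5%, were called in each medium, beside 68.8% and 70.5% of all tested genes. The 2i/LIF cells had 41 higher and 87 lower, with a median log2 change of -0.29, and the serum cells 44 higher and 84 lower, with a median of -0.18. Of the 9 regulators 6 were higher and 3 lower in 2i/LIF cells, and 5 higher and 4 lower in serum cells. The 6 include Cdc42, whose call was not stable. All tested genes split about evenly, at 34.1% higher and 34.7% lower in 2i/LIF cells and 35.3% each way in serum cells. These are descriptions, with no test of the lists.

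Genes of the actin machinery were more often lower than higher at 40 h, whereas 34.7% of all tested genes were called lower and 34.1% higher in 2i/LIF cells and 35.3% each way in serum cells. Of the 10 genes of the Arp2/3 complex, which nucleates branched actin, 6 fell and 2 rose in 2i/LIF cells, and 7 fell and 2 rose in serum cells. The complex members with the smallest p were Arpc1b (log2 change -1.18 ± 0.06 and -1.12 ± 0.06 in these media), Arpc5 (-0.91 ± 0.08 and -1.01 ± 0.07) and Actr2 (-0.39 ± 0.04 and -0.53 ± 0.04). Of 14 genes of the WAVE complex and N-WASP, which activate Arp2/3, 9 fell and 3 rose in 2i/LIF cells and 8 fell and 6 rose in serum cells. Within it the paralogs Cyfip1 (-0.82 ± 0.05 and -0.77 ± 0.04) and Cyfip2 (1.87 ± 0.12 and 1.75 ± 0.10) went in opposite directions, and Abi2 rose (0.82 ± 0.08 and 0.77 ± 0.07). Of 22 actin-binding and cortex genes 12 fell and 6 rose in 2i/LIF cells, and 16 fell and 4 rose in serum cells. Zyx, the zyxin of focal adhesions, rose 10.35-fold and 11.5-fold (edgeR adjusted p = 5.2e-50 and 4.85e-56). Msn (moesin), which ties actin to the membrane, fell by 1.23 ± 0.04 on the log2 scale in serum cells.

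The regulators of Rac and Cdc42 were mixed. Beside the counts that follow, 34.1% of all tested genes were higher and 34.7% lower in 2i/LIF cells, and 35.3% each way in serum cells. Among 21 exchange factors and their partners, which activate them, 12 fell and 6 rose in 2i/LIF cells and 9 fell and 6 rose in serum cells. Trio rose 7.75-fold and 6.20-fold, and Elmo1, a partner of the DOCK exchange factors, 2.35-fold and 3.37-fold. Dock1 fell by 1.55 ± 0.06 in log2 units in 2i/LIF cells and Dock5 by 1.44 ± 0.06 in serum cells (edgeR adjusted p between 4.85e-74 and 8.11e-29 for these genes). Among 16 GAPs and GDIs, which switch the GTPases off or hold them inactive, 7 fell and 5 rose in 2i/LIF cells and 7 fell and 5 rose in serum cells, with Arhgap17 at -1.62 ± 0.07 and -1.50 ± 0.06 and Abr at -0.92 ± 0.05 and -0.85 ± 0.05. Arhgap1 fell by 1.10 ± 0.06 in 2i/LIF cells, and Arhgdig rose 9.49-fold in serum cells. Of 14 genes of the PAK, LIMK and cofilin pathway 8 fell and 4 rose in 2i/LIF cells and 9 fell and 3 rose in serum cells. Limk2, a kinase that inactivates cofilin, fell by 1.18 ± 0.08 and by 0.93 ± 0.07, and Git2, an adaptor that binds PAK through PIX, by 1.94 ± 0.08 and by 1.32 ± 0.08.

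Membrane and endosome genes held some large changes. Their counts stand beside 34.1% higher and 34.7% lower of all tested genes in 2i/LIF cells and 35.3% each way in serum cells. Of 16 phosphoinositide enzymes 9 fell and 5 rose in 2i/LIF cells and 9 fell and 4 rose in serum cells. Pip5k1b, a kinase that makes PIP2, was 15.04-fold and 13.5-fold lower (edgeR adjusted p = 2.81e-38 and 4.42e-37). Pik3r3, a regulatory subunit of PI3-kinase, fell by 2.01 ± 0.10 in log2 units in 2i/LIF cells, and Ocrl, a PIP2 phosphatase, by 1.47 ± 0.07 in serum cells. Of 16 Arf6 exchange factors and GAPs 7 fell and 5 rose in 2i/LIF cells and 4 fell and 7 rose in serum cells. Among these Adap1 was 8.67-fold and 9.06-fold lower, and Asap1 fell by 1.45 ± 0.08 and by 0.55 ± 0.08, while Psd3 rose 3.865-fold and 3.87-fold. Of 12 Rab5 and early endosome genes 7 fell and 2 rose in 2i/LIF cells and 8 fell and 3 rose in serum cells. Rab5b gave -1.12 ± 0.09 and -0.76 ± 0.08, Rab5c -0.54 ± 0.06 and -0.78 ± 0.05, and Rab34, linked to macropinosome formation, 0.85 ± 0.10 and 1.06 ± 0.11.

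Sdc1 carries heparan sulfate, and of 16 genes that build or edit those chains 10 fell and 3 rose in 2i/LIF cells and 7 fell and 4 rose in serum cells. Of all tested genes 34.7% fell and 34.1% rose in 2i/LIF cells, and 35.3% went each way in serum cells. The enzymes that add 6-O-sulfate moved apart: Hs6st1 fell by 0.80 ± 0.06 and by 1.25 ± 0.06 on the log2 scale, and Hs6st2, under the floor of 3 counts in every 0 h library, was at least 32.4-fold and 28.7-fold higher at 40 h. Of the sulfatases that remove those groups, Sulf2 fell by 1.33 ± 0.05 and by 0.93 ± 0.05. Sulf1 rose by 1.61 ± 0.05 in serum cells (edgeR adjusted p = 2.89e-54). Its difference between media was -1.055 ± 0.06 at 0 h, lower with serum (adjusted p = 3.54e-31), and its change to 40 h was larger in serum cells by 1.22 ± 0.08 (adjusted p = 3.24e-28).

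The pathway lists also differed between the media. At 0 h 64 of the 157 genes, 40.8%, were called, beside 33% of all tested, and 57, 36.3%, had a different change at 40 h, beside 27.6%. Among the genes with the smallest p in each list, the values are given as first the difference at 0 h and then the difference in change, on the log2 scale. Flna, an actin crosslinker (0.51 ± 0.04 and -0.79 ± 0.05), and Cfl1, the main cofilin (0.26 ± 0.04 and -0.36 ± 0.05), were higher with serum at 0 h and changed downward by comparison, as Actn4 did (edgeR adjusted p between 3.45e-28 and 9.54e-10). So did Arhgap32, a GAP (0.51 ± 0.07 and -0.65 ± 0.09). The reverse was seen for Arhgap1 (-0.37 ± 0.06 and 0.43 ± 0.08), Git2 (-0.42 ± 0.07 and 0.62 ± 0.12), Asap1 (-0.67 ± 0.07 and 0.90 ± 0.11), Arap2 (-0.69 ± 0.17 and 1.11 ± 0.23), Eea1, a tether of early endosomes (-0.96 ± 0.11 and 0.88 ± 0.15), and Sulf2 (-0.36 ± 0.05 and 0.40 ± 0.07). Both values of a gene share the 0 h libraries. The difference in change is the medium difference at 40 h minus that at 0 h. The 0 h value thus enters it with a minus sign, which favours opposite signs, so such a pairing is no separate result.

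Further genes of these lists also had values of opposite sign, which the shared 0 h value favours. Elmo1 (-1.59 ± 0.12 and 0.52 ± 0.14), Dock1 (-0.62 ± 0.06 and 0.65 ± 0.09), Prex2, a Rac exchange factor (-1.05 ± 0.14 and 1.66 ± 0.19), Pik3r1, a regulatory subunit of PI3-kinase (-0.71 ± 0.10 and 0.65 ± 0.15), Wipf2 (-0.27 ± 0.08 and 0.44 ± 0.11) and Abi1 (-0.19 ± 0.07 and 0.33 ± 0.10) were lower with serum at 0 h and changed upward by comparison. Pik3c2a (0.53 ± 0.07 and -0.41 ± 0.10) and Rab5c (0.15 ± 0.05 and -0.23 ± 0.08) were higher and changed downward by comparison (edgeR adjusted p between 2.26e-22 and 0.0236 for both values of these genes). Called at 0 h and not in the change were Was (-1.02 ± 0.17), Wasf3 (-0.43 ± 0.11), Arpc1b (-0.35 ± 0.06) and Rab34 (-0.63 ± 0.12), lower with serum, and Arpc2 (0.18 ± 0.05), higher, with edgeR adjusted p between 9.91e-08 and 0.00157. Called in the change and not at 0 h were Dock5 (-0.80 ± 0.09), Pld1, a phospholipase D (-2.24 ± 0.50), and Actr2 (-0.15 ± 0.05), all more negative in serum cells (edgeR adjusted p between 1.59e-13 and 0.0294).

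**Figure D5:**
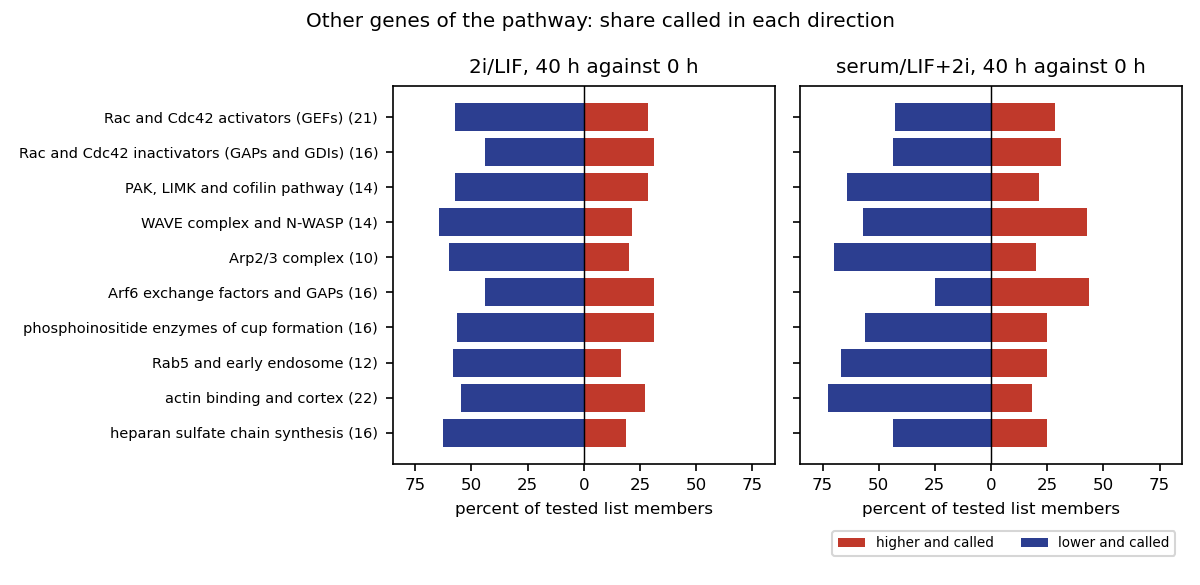
Percent of the tested genes of each pathway list that were called higher (to the right) or lower (to the left) at 40 h against 0 h, in 2i/LIF and serum/LIF+2i. The lower side is longer than the higher side in every list in 2i/LIF; in serum/LIF+2i the Arf6 exchange factors and GAPs are the exception, with 7 higher and 4 lower of 16.

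The genes whose course was most like that of each regulator were sought over the 8 group means of log2 CPM by Pearson r, among 10694 genes averaging 5 CPM or more. For Sdc1 these were Akr1b10 (r = 0.990), Banf1 (r = 0.982) and Spata5l1 (r = 0.981), and for Pak1 Grk2 (r = 0.988), Sgsm2 (r = 0.984) and Zfp738 (r = 0.980). Genes close to Arf6 were Tor1b (r = 0.994) and Tbc1d25 (r = 0.986), and Actn4 was closest to Ppm1j, Mrps31 and Gtf3c5, with r = 0.984 for the first. Ctbp1 was closest to Zfp580, Shoc2 and Hnrnph1, Ankfy1 to Zbtb43, Mbd1 and Prkar2a, Cttn to Alpl, Zbtb6 and Tapbp, and Rac1 to Timm21, Gon7 and Ap1s3. Cdc42 had the weakest matches, R3hdm4 (r = 0.948), Amotl2 (r = 0.945) and Eva1b (r = 0.939). The 8 points share a time course, so such values are a description. By Spearman's rank correlation, with ties at 1 for several members over so few points, the 3 closest genes were mostly others. They shared 1 gene with the 3 closest by Pearson r for Cdc42, Arf6, Cttn and Sdc1. For Rac1, Pak1, Actn4, Ankfy1 and Ctbp1 they shared 0, so the genes named depend on the measure.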

How the data were processed

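RNA from 16 mouse ES cell libraries was sequenced after TruSeq Stranded mRNA preparation, per the labels' protocols. The authors deposited raw counts per gene with gene lengths; fastp, STAR, featureCounts and the build mm10 are named, without versions, per the submitters' processing notes. The strand setting and the handling of reads with several matches are not given in the sources used here. From these counts, edgeR 4.0.16 (R 4.3.3, limma 3.58.1) was run with filterByExpr (minimum 10 counts, 15 in total), TMM scaling and the robust quasi-likelihood test on all 16 libraries with a term per group. It left 8 residual degrees of freedom. P-values were adjusted by the Benjamini-Hochberg method over 14288 genes in each of 17 comparisons and called under 0.05. CPM used TMM-scaled totals, and RPKM the deposited lengths. With 2 libraries per group, precision rests on the pooled spread (common biological coefficient of variation 3.19%).

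The fit was tested on simulated data with 200 changed genes among 13703: for exit at 40 h in 2i/LIF, 69% of those changed by 0.5 and 92% of those changed by 1 on the log2 scale were recovered, with 12 unchanged genes called, and for the difference of exit effects at 40 h 53% and 83%, with 3 unchanged genes called. In the real libraries 68.8% of all tested genes were called for exit at 40 h in 2i/LIF. For the difference of exit effects at 40 h it was 27.6%. Recovery with so large a share of genes changed was not tested. The simulated changed genes were drawn only from genes above a minimum mean count, so recovery at lower counts was not tested either. Same-numbered replicates did not deviate together (correlations -0.023 to 0.033 over 28 pairs of groups), so the numbers were not used as pairs. The members and gene lists were chosen with earlier results of these data known. Named besides the 9 were all tested paralogs, and in each pathway list up to 3 genes with the smallest p in exit at 40 h per medium and up to 2 in the medium difference at 0 h and in the difference of exit effects at 40 h. The 3 genes most like each member by Pearson r were named too. A few genes that this rule names are not reported here. DESeq2 1.42.0, other scalings and filters, a replicate block, fits on the compared groups only, leaving out ribosomal RNA genes and leaving out each library were tried. A floor of 3 counts per library was used for folds against groups without signal. Counts without a gene symbol (1049 genes) stayed in the totals. Promoters came from RefSeq (GRCm38.p6), and exon overlaps between genes from GENCODE.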

Additional observations from a re-analysis of the deposited data

Results flagged for a closer look

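The change on exit differed between the media by the direct test of that difference (serum/LIF+2i minus 2i/LIF, log2 scale, edgeR) for 4 of the 9 genes. At 24 h 2 of the 9 were called, beside 20.8% of all tested genes, and at 40 h 4, beside 27.6%. For Sdc1 the difference was -0.95 at 24 h and -0.55 at 40 h. For Cdc42 it was -0.22 at 24 h and -0.25 at 40 h, and these 2 values share the 0 h libraries. For Actn4 it was -0.32 at 40 h, and for Ctbp1 0.35 at 40 h. The value of Sdc1 at 40 h and that of Cdc42 at 24 h were no longer called when 1 of the 0 h libraries was left out.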

How the results depend on the processing

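Over 24 alternatives, 3450 of 3672 values of the 9 genes kept their direction and side of the threshold, 126 lost their call, 45 gained one, 51 changed sign without a call, and 0 called values changed sign. DESeq2 called 3 of the 9 genes in place of 5 in exit at 12 h in 2i/LIF and 2 in place of 4 in the step from 12 to 24 h in 2i/LIF. Over all genes the settings that kept every library called 4979 to 6496 in this exit effect and 3457 to 5138 in this step. In the medium difference at 0, 12, 24 and 40 h DESeq2 called 3, 2, 2 and 1 of the 9 in place of 5, 3, 4 and 3. Over all genes DESeq2 called 3115, 2668, 2729 and 2010 there, in place of 4710, 4334, 4439 and 3897. In the difference of exit effects at 12, 24 and 40 h it called 574, 1789 and 2419 of all genes, in place of 1315, 2966 and 3940. The medium difference at 24 h also had 2 of the 9 called with DESeq2 size factors, library totals alone, no filter or a mean of at least 5 CPM. The difference of exit effects at 12 h had 1 with library totals alone or without ribosomal RNA genes. The cause was not tested. Leaving out each library in turn gave 3 to 5 of the 9 for exit at 12 h in 2i/LIF, 2 to 6, 2 to 4 and 0 to 3 for the medium difference at 0, 24 and 40 h, and 0 to 3 and 1 to 2 for the difference of exit effects at 12 and 24 h. Over all genes it gave 2240 to 4074 for the medium difference at 40 h. Where this left 1 library in a group, that library was assumed to vary like the other groups. With the replicate block, 152 of 153 values stayed on their side of the threshold and 1, Arf6 in the step from 12 to 24 h in 2i/LIF (-0.113, adjusted p = 0.0462), became a call. Precision followed depth: the SE of a log2 difference was 0.09 to 0.18 for Sdc1, the gene with the fewest counts, and 0.03 to 0.05 for Actn4, the gene with the most.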
